A study of Microhyla fissipes with 12 samples.

Results

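Stage 45 was set against stage 40 in dorsal muscle of the frog Microhyla fissipes, by the messenger RNA of 6 of the 12 libraries of the series. The comparison used the columns of the 3 S45 libraries and of the 3 S40 libraries, named S45 and S40 after the stage. All came from tadpoles fed spirulina powder, with no treatment or genetic change named in the labels, and their ages are not given there. The other 6 libraries were from stages 43 and 36, with 3 at each. The 3 libraries of a stage are biological replicates in the words of the series, which does not state how many animals each holds, so the p-values describe differences among libraries, part of which may be technical. In a bulk muscle sample, fewer cells of a type and less RNA per cell cannot be told apart.

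Frog metamorphosis is driven by thyroid hormone, and at its climax the body of the tadpole is rebuilt within a short time. The muscle of the back is remodelled then: larval fibres are lost, and adult fibres form and take over. Skeletal muscle makes very large amounts of messenger RNA for contractile proteins and for enzymes of energy metabolism, so that a few transcripts usually dominate a muscle library. Which unigenes of this table belong to those families is not known here. The table lists cluster numbers without gene names, so the labelled tissue could not be checked against marker genes, and transcripts are given by ID or by abundance rank. A unigene is a transcript of a catalogue assembled from reads.

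The deposited values are FPKM, mapped fragments scaled for transcript length and library size, for 468578 unigenes. Of these, 83864 reached 1 FPKM in 3 or more of the 6 libraries and were tested. Total FPKM was 1417181 to 1587613 in the S45 libraries and 1247844 to 1319120 in the S40 libraries. The table holds no read counts, so absolute depth is unknown. S45 replicates 2 and 3 were near-identical: among unigenes averaging 1000 FPKM or more, the log2 ratio between them had a robust SD of 0.0287, against 0.178 to 0.290 for pairs of S40 libraries. Their mean was used as 1 sample, so S45 has n = 2 and S40 has n = 3. By this SD, 1 more pair of libraries was close although its stages differ, S40 replicate 1 and S36 replicate 3 (SD 0.0553). In correlation over the tested unigenes, S45 replicate 1 was closer to S43 replicate 3 (r = 0.787) than to S45 replicates 2 and 3 (0.754 and 0.756). By the SD it was not (0.262, against 0.237 and 0.253). S43 replicate 2 likewise correlated more with S36 replicate 1 (0.772) than with S43 replicates 1 and 3 (0.738 and 0.669). Among the S45 and S40 libraries, S45 replicate 1 stood apart by the number of unigenes it held. In it 140066 reached an FPKM of 1, against 105621 and 107969 in S45 replicates 2 and 3 and 70032 to 87889 in the S40 libraries. The number in S43 replicate 3 was similar, at 135286. Without S45 replicate 1 the test described below called 375 unigenes, against 1353 with it, S45 then being a single sample assumed to vary like the other stages.

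The most abundant transcripts took a smaller part of the S45 libraries. Within each library, the top 100 unigenes held 21.9% of total FPKM in S45 replicate 1 and 24.4% and 24.3% in S45 replicates 2 and 3. In S40 replicates 1, 2 and 3 they held 40.0%, 33.5% and 45.7%. Every S45 library thus lay below every S40 library. The means were 23.1% ± 1.67 at S45 (SD, n = 2) and 39.7% ± 6.14 at S40 (SD, n = 3), a difference of -16.6 percentage points (2-sided exact permutation p = 0.1, where 2 against 3 samples cannot give less).

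The same pattern appeared at every depth of the list that was examined. The 10 highest held 8.06% ± 0.50 at S45 (SD, n = 2) and 18.3% ± 5.48 at S40 (SD, n = 3; exact permutation p = 0.2), and the 1000 highest held 42.5% ± 2.43 and 58.5% ± 5.60 in the same order (exact permutation p = 0.1). The number of unigenes that together made up 50% of total FPKM was 2816 in S45 replicate 1 and 1832 and 1867 in S45 replicates 2 and 3. It was 284, 711 and 149 in S40 replicates 1, 2 and 3. The S45 libraries therefore spread the same share of their messenger RNA over more transcripts, with no overlap between the stages.

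**Figure D1:**
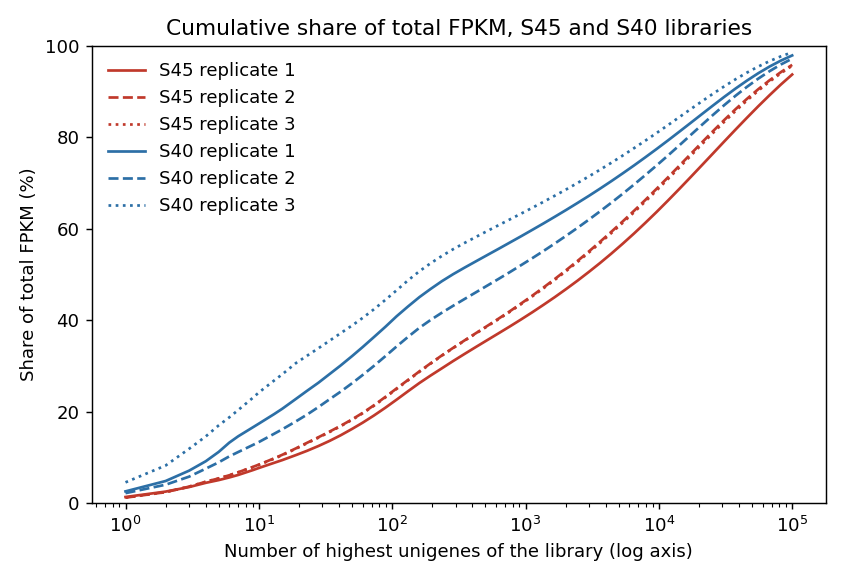
Cumulative share of total FPKM (percent) against the number of highest unigenes counted (log axis), with 1 line per library, 3 for S45 (red) and 3 for S40 (blue). The S45 lines run below the S40 lines; at 100 unigenes they stand at 21.9% to 24.4% in S45 libraries and 33.5% to 45.7% in S40 libraries.

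By limma with Benjamini-Hochberg adjustment, 987 unigenes were higher at S45 than at S40 and 366 were lower. These are 1353 of 83864, or 1.61% of those tested, with 1.18% called higher and 0.436% called lower. A call needed an adjusted p under 0.05 and a difference of at least 1 in log2(FPKM + 1). The spread was estimated from all 4 stages together. The median difference of the higher calls was 2.26 on the log2 scale and that of the lower calls -2.13, while the median over all tested unigenes was 0.45. A difference of at least 2 was reached by 641 higher and 200 lower calls, and a difference of at least 4 by 56 higher and 26 lower ones.

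The balance of the calls differed between scalings. Under median-ratio scaling, which brought the median of all tested unigenes to 0.13, 365 were higher and 244 lower. With quantile normalization the balance turned, at 294 higher and 337 lower. The numbers were 202 higher and 87 lower in a fit of S45 and S40 alone. Several single libraries moved the count by more than 1.5 times: without S40 replicate 1 there were 410 higher and 119 lower, without S40 replicate 3 433 and 144, with S45 replicate 1 left out 315 and 60, without S36 replicate 1 605 and 251, and without S43 replicate 3 2327 and 577. Higher calls outnumbered lower ones in each of these 5. Of the 1353, 266 were called in every fit that left out 1 S45 or S40 library, 234 higher and 32 lower.

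**Figure D2:**
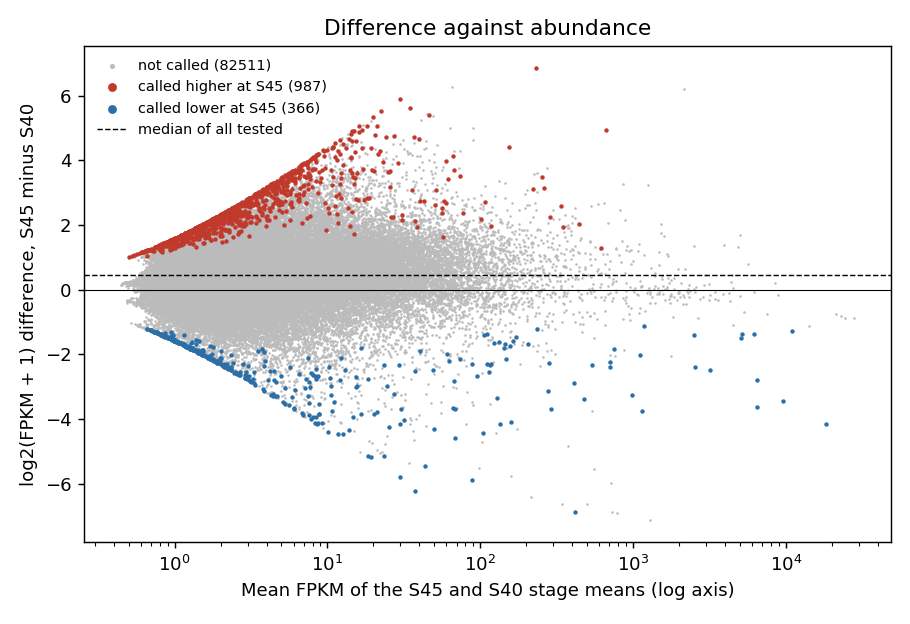
Difference in log2(FPKM + 1), S45 minus S40, against the mean of the 2 stage means in FPKM (log axis) for 83864 unigenes, with 987 called higher (red) and 366 called lower (blue); the dashed line is the median of all, 0.45. Most calls lie along the outer edges at low FPKM, where 1 stage is listed at 0, and the calls above 1000 FPKM are all lower.

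The direction of the calls differed with abundance. Among unigenes whose mean over the stages was under 10 FPKM, 874 of 68959 were higher and 271 lower. From 10 to 100 FPKM, 99 of 13787 were higher and 50 lower. From 100 to 1000 FPKM the order turned, with 14 of 985 higher (1.42%) and 31 lower (3.15%). Higher calls were not rarer there than the 1.18% among all tested. At 1000 FPKM and over, none of 133 was higher and 14 were lower, or 10.5% against the 0.436% of lower calls among all tested. For the higher calls, 0 of 133 is near the 1.18% among all tested. The median SE was 0.243 in this class, against 0.562 over all tested, so a given difference is called more easily there. The median difference followed the same order only at the top: it was 0.41, 0.63 and 0.47 in the 3 lower classes and -0.10 in the highest. These classes use the same S45 and S40 values as the calls and were chosen with earlier results of the data known.

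In shares of total FPKM, the calls weighed unequally. The 366 unigenes called lower made up 1.94%, 1.85% and 1.87% of S45 replicates 1, 2 and 3, and 11.7%, 7.92% and 16.1% of S40 replicates 1, 2 and 3. The 987 called higher made up 1.12%, 1.07% and 1.04% of the S45 libraries and 0.110%, 0.157% and 0.129% of the S40 libraries, in the same order. The lower calls were thus fewer but carried far more messenger RNA at S40 than the higher calls carried at S45. Both sets were picked by these same differences, so the shares are a description.

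Between S45 and S40, most calls were transcripts that reached an FPKM of 1 at only 1 of these stages. Of the 987 called higher, 825 reached an FPKM of 1 in every S45 library and in no S40 library, and 606 were listed at 0 in all 3 S40 libraries. Of the 366 called lower, 250 reached an FPKM of 1 in every S40 library and in no S45 library, and 213 were listed at 0 in all 3 S45 libraries. An exact 0 can be a failed estimate in this catalogue, where 1 cluster holds 224984 unigenes. A unigene that passed the filter through 1 stage alone had to differ, so these counts add no support. Among the 37294 unigenes at an FPKM of at least 1 in all 6 libraries, 62 were called higher (0.166%) and 80 lower (0.215%), although their median difference was 0.40. Both shares are below those over all tested, 1.18% higher and 0.436% lower. The counts also changed with the libraries. Without S43 replicate 2 the higher and lower calls of this group were 82 and 71, without S43 replicate 3 317 and 160, without S40 replicate 1 2 and 23, and without S40 replicate 3 5 and 20. Which direction led in this group therefore rested on the libraries used.

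By this test, calls were more frequent outside the largest cluster of the catalogue. Outside it, 336 of 7959 unigenes were higher (4.22%) and 98 lower (1.23%). Inside it, 651 of 75905 were higher (0.858%) and 268 lower (0.353%). The number of unigenes outside that cluster at an FPKM of 1 or more was 49802 in S45 replicate 1, 23399 and 24966 in S45 replicates 2 and 3, and 9786 to 15087 in the S40 libraries. In the fit of S45 and S40 alone the lower calls turned, with 0.0754% called lower outside and 0.107% inside, and the higher calls were 0.490% outside and 0.215% inside. Unigenes whose libraries did not overlap were also less frequent outside, at 23.9% higher and 4.22% lower, against 30.1% and 6.13% inside. Without S45 replicate 1, 146 of the 315 higher calls and 11 of the 60 lower calls lay outside it. The part that the wider set of transcripts in S45 replicate 1 has in this difference was not tested.

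Among the transcripts that dominate the muscle libraries, all calls were lower at S45. Abundance ranks run from 1 for the highest mean of the S45 and S40 stage means. Of the 15 most abundant unigenes, 6 were called lower, 0 higher and 9 were not called. Over all tested unigenes 0.436% were called lower and 1.18% higher, so 0 higher of 15 is near that share. Together the 15 held 7.87%, 8.47% and 8.49% of total FPKM in S45 replicates 1, 2 and 3, and 20.6%, 16.2% and 27.9% in S40 replicates 1, 2 and 3. In 12 of the 15 every S45 library lay below every S40 library, and the opposite order held in 1 of the 15. Among unigenes at 1000 FPKM and over these orders held in 27.07% and 21.05%, and among all tested in 5.95% and 29.5%. The ranks use the same S45 and S40 values, so a unigene high at 1 stage alone can enter the 15 through that stage. The shares are therefore a description.

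Abundance rank 5 had the largest fall among these 15. It had 1894.9, 1544.13 and 1621.89 FPKM in S45 replicates 1, 2 and 3, against 29854.69, 16914.21 and 57054.66 FPKM in S40 replicates 1, 2 and 3. All 3 S45 values are far below the lowest S40 value. The S40 libraries differ more among themselves than S45 replicate 1 does from S45 replicates 2 and 3, which count as 1 sample. The mean FPKM was 19.9-fold lower at S45 (log2 difference -4.15 ± 0.53 SE, limma adjusted p = 0.0045). This single unigene made up 0.109% to 0.119% of total FPKM in the S45 libraries and 1.30% to 4.57% in the S40 libraries.

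Rank 8 had 1126.64, 1958.78 and 1942.1 FPKM in the S45 libraries, against 26694.45, 8407.95 and 18060.01 FPKM in the S40 libraries. It was 11.5-fold lower at S45 in mean FPKM (log2 difference -3.43 ± 0.44 SE, limma adjusted p = 0.0047). The stages did not overlap, and S40 replicate 1, the library close to one of S36, held the highest value. Rank 12 had 1016.13, 886.18 and 863.25 FPKM in the S45 libraries, against 11439.52, 9424.04 and 15130.35 FPKM in the S40 libraries, 12.7-fold lower at S45 (log2 -3.64 ± 0.64 SE, limma adjusted p = 0.022). Rank 13 had 1460.97, 1737.71 and 1730.62 FPKM in the S45 libraries, against 10801.45, 8440.77 and 14652.69 FPKM in the S40 libraries, 7.07-fold lower (log2 -2.79 ± 0.56 SE, limma adjusted p = 0.036). With S45 replicates 2 and 3 as 1 sample, the S45 values of both were closer together than the S40 values. Neither overlapped with S40, as was so for all 366 lower calls and for 983 of the 987 higher calls. The test itself favours this. Among all tested, 5.95% lay lower without overlap and 29.5% higher.

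The other pair of called unigenes fell less. Rank 7 had 7506.88, 5282.4 and 5318.03 FPKM in the S45 libraries, against 14378.92, 12311.15 and 19994.91 FPKM in the S40 libraries (log2 difference -1.27 ± 0.23 SE, limma adjusted p = 0.025). Rank 14 had 4200.02, 2768.96 and 2710.98 FPKM in the S45 libraries, against 8197.62, 6941.19 and 11766.4 FPKM in the S40 libraries (log2 -1.37 ± 0.24 SE, limma adjusted p = 0.023). In both, S45 replicate 1 was the highest S45 library and S40 replicate 3 the highest of S40.

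Ranks 1 to 4 had lower S45 values of similar size but were not called. Rank 1, the most abundant unigene, had 21753.42, 17058.73 and 17181.93 FPKM in the S45 libraries, against 34298.75, 28706.18 and 45575.38 FPKM in the S40 libraries (log2 difference -0.88 ± 0.25 SE, limma adjusted p = 0.11). The differences of ranks 2, 3 and 4 were -0.86, -0.81 and -0.74 on the log2 scale (limma adjusted p = 0.15, 0.14 and 0.12). Relative to the median unigene, which was at 0.45, these 4 lie further down. Under quantile normalization the differences of ranks 2, 3 and 4 were 0.06, 0.14 and 0.31. For each of the 3 this was the 1 reversal in 27 alternatives. Quantile normalization gives every library the same set of values, so it cannot show a fall shared by the highest ranks.

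Ranks 9, 10 and 15 differed least among the 15. Rank 10 had 8675.92, 9631.4 and 9669.57 FPKM in the S45 libraries, against 7728.63, 8014.07 and 7874.23 FPKM in the S40 libraries (log2 difference 0.22 ± 0.13 SE, limma adjusted p = 0.42), and was the one whose S45 libraries all lay above S40. Its difference was -0.23 with median-ratio scaling and -0.0035 with the same total FPKM in every library, and with quantile normalization it was called higher (log2 1.06, limma adjusted p = 0.017). Rank 9 had a log2 difference of -0.17 ± 0.23 SE (limma adjusted p = 0.72) and 0.67 under quantile normalization. Rank 15 had -0.066 ± 0.26 SE (limma adjusted p = 0.92), with 0.40 under quantile normalization and 0.046 without S40 replicate 1. In ranks 9 and 15 the libraries of the stages overlapped. Ranks 6 and 11 had log2 differences of -1.11 ± 0.29 SE and -0.76 ± 0.32 SE and were not called either (limma adjusted p = 0.091 and 0.27), and rank 6 was called without S43 replicate 3 (limma adjusted p = 0.032).

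None of these 6 calls held in every fit with a library left out. Without S45 replicate 1 the limma adjusted p was 0.051 for rank 5, 0.088 for rank 7, 0.078 for rank 8, 0.18 for rank 12, 0.29 for rank 13 and 0.059 for rank 14. Without S40 replicate 1 it was 0.065, 0.062, 0.092 and 0.06 for ranks 7, 12, 13 and 14, and without S40 replicate 3 it was 0.063, 0.07, 0.11 and 0.055. Rank 13 also missed the threshold without S40 replicate 2 (limma adjusted p = 0.057), without S36 replicates 1, 2 and 3 (0.059, 0.055 and 0.055) and without S43 replicate 2 (0.056). All of these differences stayed negative. Ranks 5, 7, 8, 12, 13 and 14 were called in 26, 15, 24, 22, 11 and 16 of 27 alternatives.

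**Figure D3:**
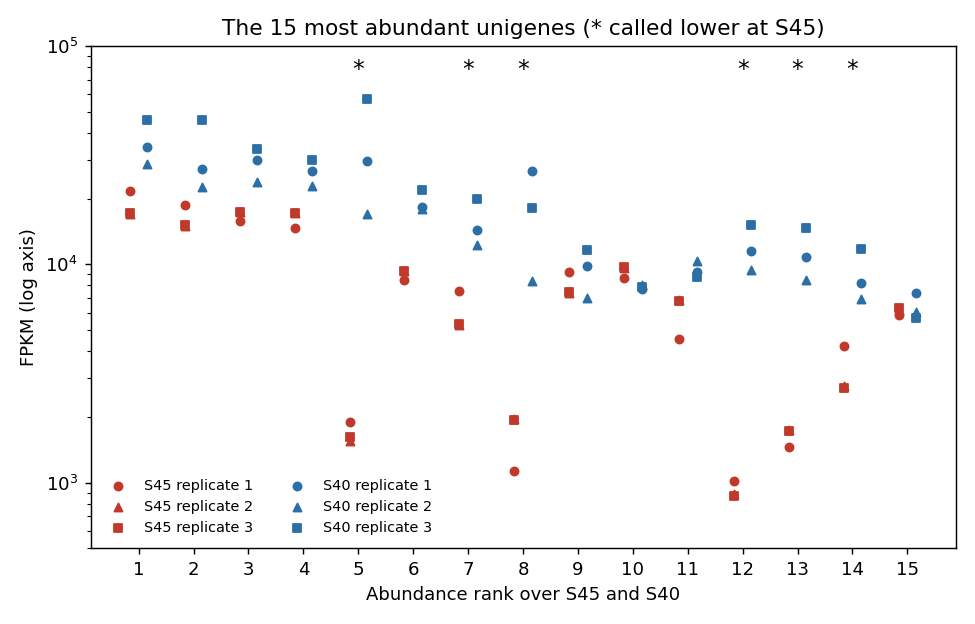
FPKM (log axis) of the 15 most abundant unigenes in each S45 library (red) and S40 library (blue), ordered by abundance rank, with an asterisk over the 6 called lower at S45. Ranks 5, 8, 12 and 13 stand well below their S40 values, ranks 1 to 4 a smaller step below, and ranks 9 and 15 overlap.

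The calls among the 100 most abundant unigenes were lower too. These 100 include the 15 above and held 11 lower calls, 6 of them among the 15, and 0 higher ones. Their median difference was -0.10. Over all tested unigenes 0.436% were called lower and 1.18% higher, so 0 higher of 100 is near that share. With quantile normalization 7 of the 100 were lower and 1 higher, and with S45 replicates 2 and 3 as separate samples 13 and 1. Without S40 replicate 1, and likewise without S40 replicate 3, 3 were lower and 0 higher, and without S45 replicate 1 none was called either way. Rank 19 had 2564.39, 2633.64 and 2788.18 FPKM in the S45 libraries, against 7664.8, 5931.13 and 9002.43 FPKM in the S40 libraries (log2 difference -1.49 ± 0.21 SE, limma adjusted p = 0.0077). It was not called without S45 replicate 1 (limma adjusted p = 0.098). All S45 libraries lay below those of S40. With S45 replicates 2 and 3 as 1 sample, the S45 values were closer together than the S40 values.

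Ranks 18, 35 and 44 completed the abundant lower calls that were examined. Rank 18 averaged 2832 ± 618 FPKM at S45 (SD, n = 2) and 7422 ± 1656 FPKM at S40 (SD, n = 3; log2 difference -1.38 ± 0.26 SE, limma adjusted p = 0.028). Rank 35 averaged 954.7 ± 79.6 FPKM at S45 and 5383 ± 1306 FPKM at S40 (log2 -2.47 ± 0.45 SE, limma adjusted p = 0.025), and rank 44 averaged 781.9 ± 325 FPKM at S45 and 4300 ± 2040 FPKM at S40 (log2 -2.39 ± 0.44 SE, limma adjusted p = 0.027). None of the 3 overlapped between stages, as was so for all 366 lower calls, a condition that the test itself favours. Without S45 replicate 1 the limma adjusted p was 0.12, 0.19 and 0.29 for ranks 18, 35 and 44, without S40 replicate 1 it was 0.089, 0.069 and 0.079, and without S40 replicate 3 it was 0.088, 0.081 and 0.086.

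Some scarcer transcripts were far lower at S45 or listed at 0 there. Both examples given here belong to the largest cluster of the catalogue, where an exact 0 can be a failed estimate. Cluster-199519.119935 had 5.94, 4.86 and 6.54 FPKM in the S45 libraries, against 645.88, 681.42 and 1159 FPKM in the S40 libraries. Its mean was 142-fold lower at S45 (log2 difference -6.87 ± 0.77 SE, limma adjusted p = 0.0021), the largest fall of any call, and it passed in all 27 alternatives. Cluster-199519.113541 was listed at 0 in all 3 S45 libraries and had 96.67, 60.62 and 66.1 FPKM in those of S40, with a limma adjusted p of 0.0013. It also passed in all 27 alternatives. Both were already low at S43, where the first had 23.75, 5.27 and 1.86 FPKM and the second was listed at 0 in every library. They were high at S36, with 995.88, 1775.54 and 548.22 FPKM and 46.91, 131.8 and 292.14 FPKM.

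The transcripts called higher were of lower abundance. The most abundant was rank 188, with 714.45, 1858.12 and 1863.32 FPKM in the S45 libraries, against 15.17, 60.72 and 53.74 FPKM in the S40 libraries. Its mean FPKM was 29.8-fold higher at S45 (log2 difference 4.93 ± 0.93 SE, limma adjusted p = 0.029), with S45 replicate 1 the lowest of its stage and still far above S40. Rank 253 had 825.07, 593.27 and 611.2 FPKM in the S45 libraries, against 141.88, 153.35 and 226.22 FPKM in the S40 libraries, 4.11-fold higher (log2 2.04 ± 0.40 SE, limma adjusted p = 0.033). Rank 324 was 5.94-fold higher, at 579.1 ± 68.7 FPKM at S45 (SD, n = 2) and 97.4 ± 21.4 FPKM at S40 (SD, n = 3; log2 2.58 ± 0.56 SE, limma adjusted p = 0.048). Rank 199 was 2.44-fold higher, at 879.4 ± 92.8 FPKM at S45 and 360.9 ± 61.9 FPKM at S40 (log2 1.29 ± 0.26 SE, limma adjusted p = 0.038).

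The largest gains on the log2 scale came from transcripts near or at a listed 0 in most or all S40 libraries. Both given here belong to the largest cluster of the catalogue. S40 replicate 1 was not near 0 for the first, so the size of that gain rests on the other S40 libraries. Cluster-199519.132517 had 395.17, 517.05 and 481.29 FPKM in the S45 libraries, against 37.89, 0 and 0.52 FPKM in those of S40, with a limma adjusted p of 0.031. Cluster-199519.124652 had 65.85, 54.24 and 50.99 FPKM in the S45 libraries and was listed at 0 in all 3 S40 libraries (limma adjusted p = 0.048). Both were also found at other stages. The first had 20.98, 52.95 and 34.44 FPKM in the S36 libraries and 166.79, 179.88 and 920.28 FPKM in the S43 libraries, and the second had 28.62, 43.1 and 1.85 FPKM at S36 and 295.12, 62.49 and 10.7 FPKM at S43. The mean of each was lowest at S40.

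Of the higher calls, Cluster-199519.132517 passed in 17 of 27 alternatives, Cluster-199519.124652 in 9, and ranks 188, 199, 253 and 324 in 18, 11, 14 and 8. Without S45 replicate 1 the limma adjusted p was 0.23, 0.33, 0.14, 0.29, 0.29 and 0.27 for these 6 in that order, and without S40 replicate 3 it was 0.094, 0.12, 0.063, 0.098, 0.052 and 0.14. Without S40 replicate 1 it was 0.12, 0.084, 0.12, 0.099 and 0.12 for the last 5 of them. Without S40 replicate 2 Cluster-199519.132517 (0.068), Cluster-199519.124652 (0.092) and ranks 199, 253 and 324 (0.053, 0.076 and 0.076) were not called. Leaving out S36 replicate 1 ended the calls of Cluster-199519.124652 (0.068) and of ranks 199, 253 and 324 (0.062, 0.053 and 0.075), leaving out S36 replicate 2 those of Cluster-199519.124652 (0.058) and rank 199 (0.056), and leaving out S36 replicate 3 that of rank 199 (0.057). Leaving out S43 replicate 1 ended that of rank 324 (0.051), S43 replicate 2 that of Cluster-199519.124652 (0.069), and S45 replicate 3 those of Cluster-199519.124652 (0.0504) and rank 324 (0.052). Every one of them kept its direction in every alternative.

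A block of transcripts was far higher in S40 replicate 1 than in any other library. In that library 25 unigenes reached 100 FPKM and 8-fold over each of the other 11 libraries, and they made up 2.40% of its total FPKM. Of these, 23 were tested and 0 were called (limma). S45 replicate 1 held 11 such unigenes with 0.262% of its total, of which 6 were tested and 0 called. The rule sets a library apart from others of its own stage, which widens the spread and works against a call. The absence of calls therefore tells nothing further.

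The 2 S45 samples pointed the same way in every call. Taken separately against the S40 mean, S45 replicate 1 and the mean of S45 replicates 2 and 3 were both above it in all 987 higher calls and both below it in all 366 lower calls, a condition that the test itself favours. The median difference of the higher calls was 2.45 in S45 replicate 1 and 2.06 in replicates 2 and 3, and replicate 1 lay further from S40 in 665 of the 987. For the lower calls the medians were -2.14 and -2.08. Of these, 213 were listed at 0 in all 3 S45 libraries, so both S45 samples give the same difference by construction.

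**Figure D4:**
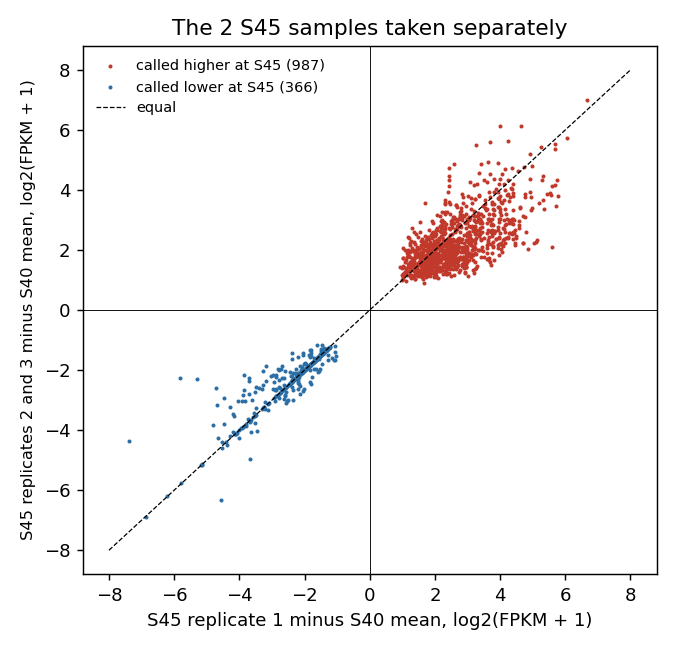
Difference from the S40 mean in log2(FPKM + 1) for the 1353 called unigenes, with S45 replicate 1 on the horizontal axis and the mean of S45 replicates 2 and 3 on the vertical axis; the dashed line marks equal differences. Higher calls (red) spread below the line more often than above it, and lower calls (blue) lie closer to it. Of the lower calls, 213 are listed at 0 in all 3 S45 libraries and lie on the line by construction.

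At S43 the lower calls stood nearer to their S45 level than the higher calls did. On a scale where the S40 level is 0 and the S45 level is 1, the median position of S43 was 1 for the lower calls and 0.133 for the higher calls. For the lower calls, the median of the stage means in log2(FPKM + 1) was 2.21 at S36, 2.39 at S40, 0 at S43 and 0 at S45. At S43, 232 of the 366 were at or past their S45 level, 134 lay between the S40 and S45 levels and 0 were still at or above S40. For the higher calls the medians were 0 at S36, 0 at S40, 0.35 at S43 and 2.43 at S45. Of the 987, 36 were at or past their S45 level at S43, 540 lay between and 411 had not moved past S40. These positions use the same S40 and S45 values that made the calls, and the spread of S43 and S36 entered the test. Of the lower calls, 190 were listed at 0 in all S43 and S45 libraries, which sets their position to 1. Of the higher calls, 276 were listed at 0 in all S40 and S43 libraries, which sets theirs to 0. A stage listed at 0 throughout adds no spread, which favours a call, so the contrast between the lists is a description.

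S43 and S36 share no library with the comparison, so S43 minus S36 gives values of their own. Among the lower calls, 324 of 366 (88.5%) were lower at S43 than at S36, 6 were higher and 36 were equal. Among the higher calls, 542 of 987 (54.9%) were higher at S43 than at S36, 187 were lower and 258 were equal, at least 234 of them listed at 0 at both stages. Over all tested unigenes 48.4% were lower, 49.6% were higher and 1640 were equal. Of the unequal ones alone, 98.2% of the lower calls were lower at S43, against 49.4% of all tested, and 74.4% of the higher calls were higher, against 50.6%. With all S43 and S36 libraries, the direction of the call was thus more frequent in both lists than among all tested unigenes. With calls from a fit of S45 and S40 alone, which does not use the other stages, these shares were 88.4% (76 of 87, with 1 equal) and 69.9% (121 of 202, with 29 equal). S36 replicate 3 is close to S40 replicate 1, and the largest counts of unigenes outside the main cluster were in S43 replicate 3 and S45 replicate 1. Without S36 replicate 3 and S43 replicate 3 the shares of the unequal ones were 97.6% for the lower calls, against 51.7% of all tested, and 71.4% for the higher calls, against 48.3%. With equal ones counted in, the lower calls stood at 87.2%, against 49.4% of all tested. The higher calls stood at 45.6% (450 of 987, with 357 equal), against 46.2%, so on that count they showed no excess.

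**Figure D5:**
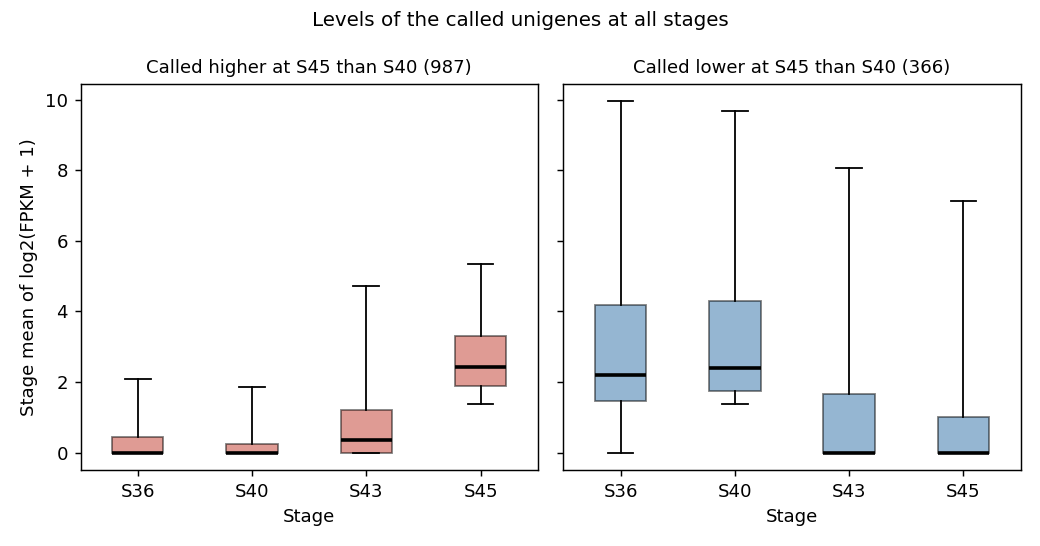
Stage means of log2(FPKM + 1) at S36, S40, S43 and S45 for the 987 unigenes called higher (left) and the 366 called lower (right) at S45 than at S40; boxes span the quartiles with the median as a thick line, and whiskers run from the 5th to the 95th percentile. The median of the lower calls is 0 at S43 already, while that of the higher calls is 0.35 at S43 and 2.43 at S45.

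The listed zeros were also counted at the other stages. Of the 606 higher calls listed at 0 in all S40 libraries, 467 were also at 0 in all S36 libraries and 276 in all S43 libraries, and 234 were listed at 0 in all 9 libraries other than those of S45. Of the 213 lower calls listed at 0 in all S45 libraries, 190 were at 0 in all S43 libraries and 32 in all S36 libraries, and 153 reached an FPKM of 1 in every S36 library.

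Single abundant unigenes did not all follow the medians of their lists. Rank 5 had 34929.67, 56223.97 and 30041.44 FPKM in the S36 libraries and 6480.34, 5189.84 and 2105.32 FPKM in the S43 libraries, so S43 lay between S40 and S45 with no overlap. Rank 8 had 2066.93, 2422.77 and 1776.71 FPKM at S43, near its S45 level. Rank 12 spread widely within S43, with 7622.97, 2876.97 and 955.91 FPKM, and rank 13 likewise had 8040.31, 3620.95 and 1319.77 FPKM. In both, S43 replicate 1 lay nearest the S40 libraries and S43 replicate 3 nearest those of S45. Ranks 7 and 14 had S43 means of 10746 and 5856 FPKM, between their means of 6404 and 3470 FPKM at S45 and of 15562 and 8968 FPKM at S40. Rank 188, called higher, had 5524.47, 1153.53 and 785.62 FPKM at S43 and 3.06, 4.47 and 18.1 FPKM at S36, so its S43 mean was above that of S45. Ranks 199 and 253 had S43 means of 842.3 and 1042 FPKM, against 879.4 and 713.6 FPKM at S45, so they too were at about the S45 level or above it by S43. Rank 324 had 294.04, 104.49 and 300.43 FPKM at S43, below every S45 library.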

How the data were processed

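Members, lists and tests were chosen with earlier results of these data known. The authors deposited a single table with a column per library, and its values are FPKM rounded to 2 decimals, a unit the labels name. Per the labels' protocols, poly-A RNA was sequenced as paired ends; which assembler, aligner and counter followed is not given in the sources used here. FPKM is scaled to library size, so a smaller share of the highest transcripts can raise the others. Total FPKM also differed between libraries. With the same total in every library the median difference of all tested unigenes was 0.29, against 0.45 as deposited. What each contributes to the median difference was not tested. No count model was used, since read counts are unknown.

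limma 3.58.1 in R 4.3.3 was fitted to log2(FPKM + 1) of 11 samples, with stage as the only term and eBayes with a mean-expression trend. This scale understates changes at low FPKM. S45 minus S40 was called at a Benjamini-Hochberg adjusted p under 0.05, over all unigenes tested, and a difference of at least 1. The step was tried on simulated data, with changes added only to more abundant unigenes and no floor at 0. That trial does not cover calls where 1 stage is listed at 0. Shares were compared by exact permutation over samples, 2-sided on the absolute difference. Python 3.11.15 with numpy 2.4.6, pandas 2.3.3 and matplotlib 3.10.9 was used.

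By a fixed rule, IDs were printed for at most 2 unigenes called higher and 2 called lower, those with the largest difference among those with a mean of at least 10 FPKM in the higher stage and no overlap of libraries. Ranks were given for the 15 most abundant unigenes and for the 4 called higher and 4 called lower with the highest FPKM that were not named already. Alternatives were a pseudocount of 0.1 or 0.5, dropping the filter, a minimum mean of 5 FPKM, scaling, variance settings, the fit of S45 and S40 alone, S45 replicates 2 and 3 apart with and without a replicate block, and each library left out. Rescaling to 1 total and leaving out both S36 replicate 1 and S43 replicate 2 were added after seeing the data.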

Additional observations from a re-analysis of the deposited data

How the results depend on the processing

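A pseudocount of 0.1 called 754 unigenes (409 higher, 345 lower), against the 1353 called above. Of those 1353, 372 higher and 289 lower calls were among them. A mean of at least 5 FPKM called 148 (80 and 68), median-ratio scaling 609, quantile normalization 631 and eBayes without trend 721. The fit of S45 and S40 alone called 289, with 113 of the 987 and 61 of the 366 among them. With S45 replicates 2 and 3 as separate samples 3481 were called (2610 and 871). Leaving out S36 replicate 3 together with S40 replicate 1 gave 314, S43 replicate 3 together with S45 replicate 1 gave 865, and S36 replicate 1 together with S43 replicate 2 gave 561. Without 1 library at a time the count ran from 375 to 2904. It stayed within 1.5 times of 1353 with a pseudocount of 0.5, no filter, robust eBayes, the same total FPKM in every library and no fold threshold, although with no filter the directions moved apart, to 1692 higher (555 of the 987 among them) and 206 lower. The cause of these changes was not tested. The difference in the share of the 100 highest unigenes kept its direction throughout, from -19.7 to -13.6 percentage points with 1 library left out. The median difference of all tested unigenes was -0.0096 with quantile normalization, against 0.45 as deposited.

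Same-numbered S45 and S40 libraries did not deviate together across unigenes (r = -0.041, -0.0059 and -0.025 for numbers 1, 2 and 3). S45 replicates 2 and 3 are near-identical and deviate alike, so these values cannot settle whether numbers 2 and 3 pair samples. With the replicate number as a block, in the fit of 12 separate libraries, 1962 were called (1385 higher, 577 lower), and the S45 libraries did not each correlate best with their own number.

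Of 18 called unigenes that the text names, leaving out S45 replicate 1 kept 2, S40 replicate 3 kept 5, S40 replicate 1 kept 6 and S43 replicate 3 kept 18. A mean of at least 5 FPKM kept 6, eBayes without trend 7, the fit of S45 and S40 alone 8, quantile normalization 9, median-ratio scaling 10 and a pseudocount of 0.1 11. Rank 2 had a difference of 0.061, rank 3 of 0.14, rank 4 of 0.31, rank 9 of 0.67 and rank 15 of 0.40 under quantile normalization, and rank 15 ran from -0.15 to 0.046 with 1 library left out (0.046 also with S36 replicate 3 and S40 replicate 1 both out). Rank 10 had -0.23 with median-ratio scaling and -0.0035 with the same total. None of these 6 was called as deposited, and rank 10 was called higher with quantile normalization (1.06). With 2 S45 samples and unknown depth, a unigene that was not called is not shown to be unchanged.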
